A study of Homo sapiens with 18 samples.

Results

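The day 15 response to induced G0S2 was compared between 2 human breast cancer cell lines, T47D (labelled estrogen receptor positive) and MDA-MB-231 (labelled estrogen receptor negative), in RNA sequencing of cells that carry a doxycycline-inducible G0S2 gene. The genes compared were the 12666 listed in the tables of both lines, of 16410 listed in either. For each gene, the day 15 minus control difference in MDA-MB-231 was subtracted from that in T47D on the log2 CPM scale (CPM, counts per 1e6 reads), so a positive value means a larger rise, or a smaller fall, in T47D. The study holds 18 libraries. The 12 used for the differences are T47D after 15 days of doxycycline at 0.5 ug/ml, T47D without doxycycline (control), MDA-MB-231 after 15 days of the same dose, and MDA-MB-231 control, with 3 libraries each. The other 6 libraries are T47D and MDA-MB-231 after 3 days of doxycycline, 3 each, which enter the estimate of spread and the day 3 values. All of these groups carry the inducible gene, and each labelled cell type is represented by 1 line, while cells given doxycycline but lacking the inducible gene were not analysed here, so G0S2, doxycycline and vector effects cannot be told apart. The series text speaks of parental and Aza-resistant lines in triplicate, which does not match the sample labels; groups follow the labels. The labels do not say whether the 3 libraries of a group are separate cultures. A p-value therefore measures only how these libraries vary, which may be technical, and fewer cells of a kind cannot be told apart from less RNA per cell.

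G0S2 protein binds and inhibits PNPLA2, the lipase that begins the breakdown of stored triglyceride. T47D is a luminal line that depends on estrogen receptor signalling, whereas MDA-MB-231 is a mesenchymal-like line. Type I interferon acts through the kinases JAK1 and TYK2 on a transcription factor complex that binds the interferon-stimulated response element (ISRE) in the promoters of antiviral genes.

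The lines showed the markers of their labels. ESR1 (mean 277 CPM), PGR (820.4 CPM) and FOXA1 (379 CPM), markers of luminal receptor-positive cells, were listed only in the T47D table. VIM (2269 CPM), ZEB1 (129 CPM) and AXL (1352 CPM), markers of mesenchymal-like cells, were listed only in the MDA-MB-231 table; SPARC, also on the marker list, had only 0.574 CPM there. The luminal marker GATA3 averaged 1137 CPM in T47D controls and 17.7 CPM in MDA-MB-231 controls, and the mesenchymal marker CD44 11.1 and 934 CPM in the same order of lines; the 2 tables were normalized separately, so such levels are set side by side with that limit. Recovered library depth was 40.1 to 51.0 M reads in T47D and 37.0 to 52.4 M reads in MDA-MB-231. T47D day 15 replicate 2 stood apart from its group. Over genes, its deviation from the mean of the other libraries of its group had an SD of 0.226 log2 units. That deviation had a Pearson correlation of 0.526 with GC content. Replicate 3 had an SD of 0.183 and a correlation of -0.56, and the other libraries of both lines had absolute correlations of at most 0.344. Replicates 2 and 3 enter each other's reference mean, so their correlations are not independent. All T47D day 15 results include both libraries, and only some are also given with 1 of them left out. Fibroblast markers summed to 24.9 to 27.4 CPM in T47D at day 15 and 34.7 to 40.2 CPM in T47D controls (2 of 10 listed), and to 13.8 to 14.4 CPM in MDA-MB-231 at day 15 and 15.9 to 16.99 CPM in MDA-MB-231 controls (4 of 10 listed). Leukocyte markers summed to 1.81 to 2.24 CPM in T47D at day 15 and 1.501 to 1.96 CPM in T47D controls (3 of 10 listed), and to 75.01 to 82.5 CPM and 76.2 to 78.2 CPM in the same groups of MDA-MB-231 (4 of 10 listed). No endothelial marker of 8 was listed for T47D. Their part in the results was not tested.

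G0S2 itself rose in both lines, and by more in T47D. G0S2 (GRCh38, chromosome 1, 209675420 to 209676388, plus strand) had 766, 993 and 736 CPM in T47D at day 15, against 0.966, 0.343 and 0.442 CPM in T47D controls. It had 1209, 1294 and 1103 CPM in MDA-MB-231 at day 15, against 25.6, 25.1 and 25.2 CPM in MDA-MB-231 controls. Day 15 and control libraries did not overlap in either line. The rise was 10.61 (SE 0.371) log2 units in T47D and 5.57 (SE 0.0459) in MDA-MB-231, a difference of 5.04 (SE 0.383, limma with Benjamini-Hochberg adjusted p = 1.94e-06). The T47D control value rests on 14 to 40 reads in a library, and the day 15 levels of the 2 lines were near each other, so most of the difference lies in the controls (tables normalized separately).

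**Figure D1:**
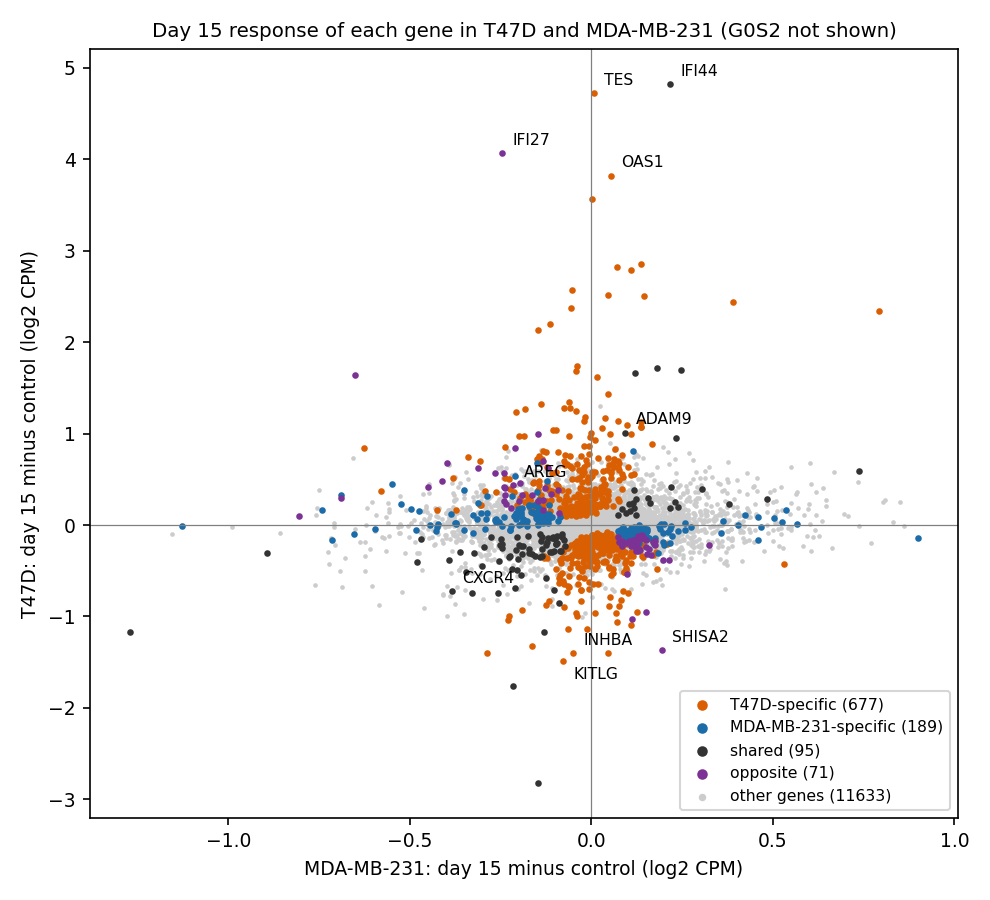
Each point is a gene. The horizontal axis is its day 15 minus control difference in MDA-MB-231 and the vertical axis that in T47D, both in log2 CPM, with colour for the class; G0S2 is left out of the 96 shared genes. T47D changes reach beyond 4 log2 units in IFI44, TES and IFI27. Changes over 1 log2 unit in either direction, called or not, number 63 genes in T47D and 4 in MDA-MB-231. Both counts include G0S2.

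Of the 12666 genes, 1196 (9.44%) had a called difference between the lines at day 15 (limma, adjusted p under 0.05), 516 higher in T47D (4.07%) and 680 lower (5.37%). Among them 71 differed by over 2-fold, 53 higher and 18 lower, and the median size of a called difference was 0.28 log2 units. Without T47D day 15 replicate 3, 1899 differences were called, and without replicate 2, 1358; without T47D day 15 replicate 1 it was 950. In T47D itself, 1395 of these genes (11.0%) changed between day 15 and control (libraries of the groups did not overlap in 25.9% of all genes), with 581 rises (4.59%) and 814 falls (6.43%). In MDA-MB-231, 1042 (8.23%) changed (no overlap in 24.2% of all genes), with 456 rises (3.60%) and 586 falls (4.63%). In T47D the count became 831 with control replicate 1 left out, 767 with control replicate 2, 819 with day 15 replicate 1 and 3342 with day 15 replicate 2. In MDA-MB-231 the count became 395 (control replicate 1 left out), 380 (control replicate 2), 1631 (control replicate 3), 600 (day 15 replicate 1), 1735 (day 15 replicate 2) and 613 (day 15 replicate 3).

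Of the 1395 genes called in T47D and the 1042 called in MDA-MB-231, 167 were called in both. The same direction held for 96 of them, or 6.88% of the T47D calls and 9.21% of the MDA-MB-231 calls, with 27 shared rises (0.213% of all genes) and 69 shared falls (0.545%). The 2 lines moved in opposite directions in the other 71, of which 32 rose in T47D (0.253%) and 39 in MDA-MB-231 (0.308%), and in each of those the difference itself was called. A T47D-specific change (called in T47D, not in MDA-MB-231, with the difference called) was found in 677 genes, 280 rises (2.21%) and 397 falls (3.13%). An MDA-MB-231-specific change was found in 189, 89 rises (0.703%) and 100 falls (0.790%). Another 1237 genes (9.77%) were called in 1 line without a called difference, so they are not shown to be line-specific, 234 (1.85%) had a called difference with neither line called, and 10162 (80.2%) had no call. Single libraries moved these counts. Shared rises numbered 118 and shared falls 201 without T47D day 15 replicate 2, T47D-specific genes 420 without T47D control replicate 2 and 445 without T47D day 15 replicate 1, and MDA-MB-231-specific genes 349 without T47D day 15 replicate 3. Leaving out MDA-MB-231 control replicate 1 or 2 gave 73 or 75 MDA-MB-231-specific, 41 or 38 opposite and 12 or 10 shared rising genes, and MDA-MB-231 day 15 replicate 1 or 3 gave 108 or 120 MDA-MB-231-specific genes and 14 shared rises each. Opposite genes also numbered 45 and 43 without T47D control replicates 1 and 2 and to 44 without MDA-MB-231 day 15 replicate 1. Shared rises were 17 without T47D day 15 replicate 1 and 42 and 48 without MDA-MB-231 control replicate 3 and day 15 replicate 2. Shared falls were 44, 42 and 43 with T47D control replicates 1, 2 and 3 left out in turn, 45 without T47D day 15 replicate 1, and 45 and 40 without MDA-MB-231 control replicates 1 and 2. Across the 12666 genes, Pearson's correlation of the 2 responses was 0.19, and 0.06 without G0S2, as a description of genes that are not independent.

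Genes of the type I interferon response were 26 of the 53 genes whose difference was called and over 2-fold higher in T47D. The list makes up 47 of all 12666 genes. Of 47 listed interferon genes in both tables, 45 rose in T47D (4.59% of all genes) and none fell. In MDA-MB-231, 3 rose (3.60% of all genes) and 4 fell (4.63%). Fitted without trend and robust moderation, none rose and 2 fell in MDA-MB-231. The difference was called in 44, all higher in T47D (background 4.07%), with a list median of 1.13 log2 units against -0.01 over all genes. That list median was 0.77 when computed as log2(CPM + 1). It was 0.80 over the 32 members with mean log2 CPM of 1 or more in both lines. Summed over the 47 genes, the level was 1938 to 1962 CPM in T47D at day 15 and 1219 to 1227 CPM in T47D controls. It was 2085 to 2104 CPM in MDA-MB-231 at day 15 and 2102 to 2138 CPM in MDA-MB-231 controls. The sum in T47D thus came near that of MDA-MB-231 with and without induction (tables normalized separately), but the median member stayed lower. The median level was 3.76 log2 CPM in T47D at day 15, against 4.42 in MDA-MB-231 at day 15 and 4.35 in MDA-MB-231 controls. The 3 members without a called difference were ISG20 (0.02), USP18 (0.39) and MX2 (0.41). The count of called differences was 44 without each T47D day 15 library in turn and with the GC and length trend removed, and the falls in MDA-MB-231 numbered 2 without MDA-MB-231 control replicate 1. Members of the IFIT, OAS and HLA families have near copies, so reads may be split between them.

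Promoters of 4 of these genes and of TES are shown because the interferon genes carry the ISRE core (the bases gaaa, any 2 bases, then gaaa, searched on both strands and shown in capitals) and TES, which had the largest difference after G0S2, does not carry it in this window. They are RefSeq windows on GRCh38.p14, 250 bases before to 50 after the gene's start, 5' to 3' on the gene's strand.

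IFIT1, chr10:89392373-89392672 (+): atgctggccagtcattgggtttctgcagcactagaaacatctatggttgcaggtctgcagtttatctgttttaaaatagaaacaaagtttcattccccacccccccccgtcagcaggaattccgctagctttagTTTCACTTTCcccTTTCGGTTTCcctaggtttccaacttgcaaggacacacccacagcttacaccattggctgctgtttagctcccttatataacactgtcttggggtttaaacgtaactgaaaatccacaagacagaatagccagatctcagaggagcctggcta

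IFIT3, chr10:89327747-89328046 (+): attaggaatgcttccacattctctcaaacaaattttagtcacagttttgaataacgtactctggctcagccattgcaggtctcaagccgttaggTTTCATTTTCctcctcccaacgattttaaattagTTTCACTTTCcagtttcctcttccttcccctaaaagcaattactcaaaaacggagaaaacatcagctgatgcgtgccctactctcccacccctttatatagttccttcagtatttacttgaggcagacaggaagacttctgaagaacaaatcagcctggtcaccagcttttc

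MX1, chr21:41420308-41420607 (+): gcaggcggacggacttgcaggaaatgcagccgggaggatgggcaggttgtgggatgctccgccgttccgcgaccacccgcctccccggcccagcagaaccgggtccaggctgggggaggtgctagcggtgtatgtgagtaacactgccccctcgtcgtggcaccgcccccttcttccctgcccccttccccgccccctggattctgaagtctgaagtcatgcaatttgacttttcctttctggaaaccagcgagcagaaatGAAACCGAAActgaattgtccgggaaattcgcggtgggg

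IFI6, chr1:27672143-27672442 (-): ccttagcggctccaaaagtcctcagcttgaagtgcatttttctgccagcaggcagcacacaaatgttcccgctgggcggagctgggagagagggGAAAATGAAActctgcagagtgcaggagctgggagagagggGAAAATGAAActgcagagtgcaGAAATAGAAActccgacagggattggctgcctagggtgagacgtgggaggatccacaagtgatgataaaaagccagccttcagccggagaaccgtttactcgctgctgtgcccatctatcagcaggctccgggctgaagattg

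TES, chr7:116210289-116210588 (+): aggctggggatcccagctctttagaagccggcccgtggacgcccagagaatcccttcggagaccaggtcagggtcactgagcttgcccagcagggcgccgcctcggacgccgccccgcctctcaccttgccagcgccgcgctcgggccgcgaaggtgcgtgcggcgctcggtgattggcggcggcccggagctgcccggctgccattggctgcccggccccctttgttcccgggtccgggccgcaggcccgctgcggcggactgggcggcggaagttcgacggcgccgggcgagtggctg

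IFIT1 has matches starting 116 and 103 bases before its start, IFIT3 156 and 122 bases before, IFI6 156, 115 and 93 bases before, and MX1 11 bases after its start. Of 36 interferon list genes with a window, 25 (69.4%) held the core, against 274 of 9779 genes in both tables (2.8%) and 996 of all 27305 windows (3.65%). Among other T47D-specific rises it was 13 of 182 (7.14%), among T47D-specific falls 7 of 320 (2.19%), and among MDA-MB-231-specific falls 3 of 69 (4.35%). Where a gene has several windows the first listed was used; 42 windows hold overlapping matches, and a match is a description, not a site shown to be used.

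Among the antiviral effectors, IFIT1, which binds foreign RNA, had 40.0, 35.6 and 41.7 CPM in T47D at day 15, against 6.79, 6.14 and 6.83 CPM in T47D controls. It had 44.5, 43.7 and 45.9 CPM in MDA-MB-231 at day 15, against 45.3, 46.8 and 47.1 CPM in MDA-MB-231 controls. The T47D libraries did not overlap, while the MDA-MB-231 levels differed by at most a few CPM and were near the T47D day 15 level. The difference between lines was 2.62 (SE 0.0752, limma with Benjamini-Hochberg adjusted p = 5.78e-16). IFIT3, its partner in the same complex, had 10.5, 8.17 and 11.1 CPM in T47D at day 15, against 1.82, 1.59 and 1.74 CPM in T47D controls, and 98.9, 92.1 and 101 CPM in MDA-MB-231 at day 15, against 90.6, 92.1 and 100.1 CPM in MDA-MB-231 controls. Here T47D stayed well below MDA-MB-231 even at day 15. The difference was 2.47 (SE 0.118, adjusted p = 1.27e-11) by the same limma test.

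MX1, a GTPase that blocks virus replication, ran the other way in level, with 111, 105 and 115 CPM in T47D at day 15, against 21.3, 21.9 and 20.4 CPM in T47D controls. It had 8.26, 7.59 and 8.52 CPM in MDA-MB-231 at day 15, against 8.35, 8.14 and 8.81 CPM in MDA-MB-231 controls. The difference was 2.43 (SE 0.0713, adjusted p = 6.12e-16), and MX1 was higher in T47D than in MDA-MB-231 already in controls. IFI6 had 46.5, 52.0 and 42.3 CPM in T47D at day 15, against 8.28, 8.22 and 8.18 CPM in T47D controls, and 5.89, 4.98 and 5.79 CPM in MDA-MB-231 at day 15, against 4.68, 5.44 and 4.95 CPM in MDA-MB-231 controls, with a difference of 2.36 (SE 0.109, adjusted p = 1.81e-12). OAS2, which makes the oligoadenylates that activate RNase L, had 11.97, 11.3 and 11.1 CPM in T47D at day 15, against 1.64, 1.45 and 1.79 CPM in T47D controls, and 26.5, 27.1 and 24.8 CPM in MDA-MB-231 at day 15, against 24.2, 25.7 and 24.7 CPM in MDA-MB-231 controls, with a difference of 2.75 (SE 0.0968, adjusted p = 1.46e-14). In all 3 genes the T47D groups did not overlap.

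ISG15, the ubiquitin-like modifier, differed by 2.28 (SE 0.297), OASL by 2.68 (SE 0.201), OAS1 by 3.77 (SE 0.289) and IFIT2 by 2.31 (SE 0.0899). IFI44 was called in both lines, with a rise of 4.82 (SE 0.237) in T47D and 0.22 (SE 0.0600) in MDA-MB-231, as was SAMD9 with 1.72 (SE 0.108) and 0.18 (SE 0.0380); both differences were called (4.61 and 1.54). IFI27 rose by 4.07 (SE 0.198) in T47D and fell by 0.25 in MDA-MB-231, with 12 to 22 reads per control library in T47D. Computed as log2(CPM + 1), which shrinks genes with few reads, the differences were 2.32 for IFI44, 2.40 for OAS1, 2.74 for IFI27, 1.77 for OASL and 1.28 for ISG15, each still called.

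At day 3 of doxycycline, compared with the same controls, the T47D minus MDA-MB-231 difference was 4.65 for IFIT1, 4.13 for MX1, 4.08 for IFI6 and 4.64 for OAS2, against 2.62, 2.43, 2.36 and 2.75 at day 15. The day 3 values were larger in each of these 4 genes, a difference between days that was not tested. Over all genes, 311 differences (2.46%) were called at day 3.

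**Figure D2:**
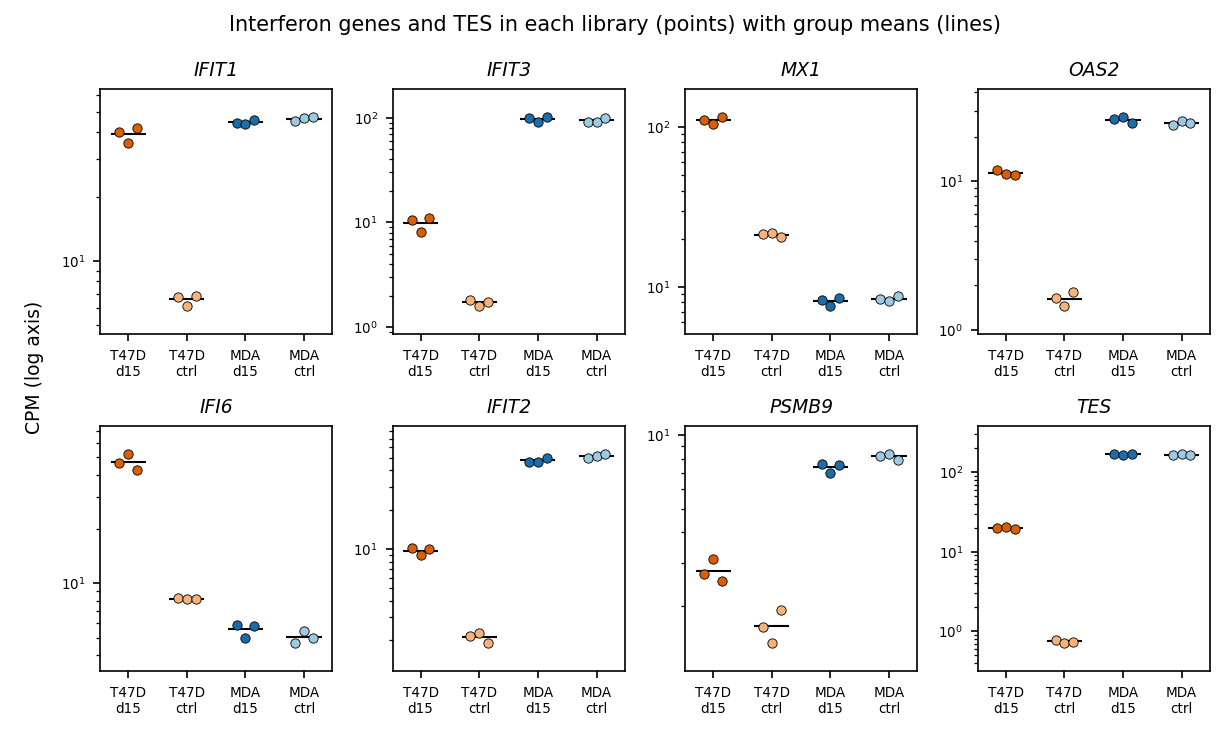
Each panel is a gene, with CPM on a log axis for the 3 libraries (points) and the mean (line) of T47D day 15, T47D control, MDA-MB-231 day 15 and MDA-MB-231 control. In all 8 genes the T47D day 15 points sit above the T47D control points, while the MDA-MB-231 groups lie close together.

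Antigen presentation genes, many of which interferon also induces, rose in T47D in 14 of the 21 members in both tables (4.59% of all genes rose), and none fell. In MDA-MB-231, 1 rose (3.60% of all genes) and 3 fell (4.63%). The difference was called in 12, all higher in T47D (4.07% of all genes), with a list median of 0.38. PSMB9, a subunit of the immunoproteasome, had 2.71, 3.10 and 2.53 CPM in T47D at day 15, against 1.64, 1.41 and 1.92 CPM in T47D controls. It had 7.63, 6.999 and 7.57 CPM in MDA-MB-231 at day 15, against 8.24, 8.36 and 7.91 CPM in MDA-MB-231 controls. The groups did not overlap in either line, with few reads in T47D (118 to 138 reads at day 15 and 68 to 74 reads in controls); the MDA-MB-231 change was -0.14 (adjusted p = 0.256) and the difference 0.90 (SE 0.155, adjusted p = 0.000526). The class II gene HLA-DRB1 differed by 1.08 (SE 0.149) and NLRC5, which activates class I genes, by 0.78 (SE 0.185). Without T47D control replicate 2, 9 of the 21 rose in T47D. Without MDA-MB-231 control replicate 3 or day 15 replicate 2, 8 fell in MDA-MB-231, and none rose there once control replicate 1 or 2, or day 15 replicate 1 or 2, was left out.

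TES, a focal adhesion protein, showed the largest difference after G0S2. It had 19.8, 20.6 and 19.1 CPM in T47D at day 15, against 0.786, 0.719 and 0.742 CPM in T47D controls. It had 169, 165 and 169 CPM in MDA-MB-231 at day 15, against 167, 168 and 167 CPM in MDA-MB-231 controls. T47D day 15 lay far above its controls (27 to 33 reads each), the MDA-MB-231 groups overlapped, and the difference was 4.72 (SE 0.0735, limma with Benjamini-Hochberg adjusted p = 4.66e-21). ADAM9, a membrane metalloproteinase, rose in both lines but by 1.01 (SE 0.0350) in T47D and 0.09 (SE 0.0217) in MDA-MB-231, a difference of 0.92 (SE 0.0413, adjusted p = 1.21e-12).

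NF-kB and cytokine genes fell in MDA-MB-231 more often than in T47D, by counts of calls whose difference was not tested. Of 18 in both tables, 11 fell there (4.63% of all genes) and none rose (3.60%). Without trend and robust moderation 6 fell in MDA-MB-231, but its calls over all genes also went from 1042 to 169. In T47D, 2 rose (4.59% of all genes) and 2 fell (6.43%). Another 10 of the 34 list members were listed only for MDA-MB-231 and are not counted. The difference was called as higher in T47D in 8 (4.07% of all genes) and lower in 2 (5.37%), with a median of 0.34, which was 0.17 with the GC and length trend removed. BIRC3, an inhibitor of apoptosis induced by NF-kB, had 20.2, 18.3 and 21.6 CPM in T47D at day 15, against 15.5, 15.3 and 14.4 CPM in T47D controls, and 38.6, 37.6 and 40.3 CPM in MDA-MB-231 at day 15, against 45.1, 45.2 and 46.9 CPM in MDA-MB-231 controls. The groups did not overlap in either line, and the lines moved in opposite directions, with a difference of 0.65 (SE 0.0733, adjusted p = 2.96e-06). TNFAIP2 likewise rose by 0.33 in T47D and fell by 0.24 in MDA-MB-231. ICAM1, a leukocyte adhesion molecule, fell by 0.42 in MDA-MB-231 alone (T47D -0.03, adjusted p = 0.903), with a difference of 0.40 (SE 0.0872). Leaving out T47D control replicates 1, 2 or 3 or day 15 replicate 2 left 1 rise in T47D, and T47D control replicate 2, MDA-MB-231 control replicate 2 or MDA-MB-231 day 15 replicate 3 left 1 lower difference. The count of differences higher in T47D was 4 without T47D control replicate 1 and 5 with the GC and length trend removed.

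On the opposite side, of 36 ATF4 target and amino acid genes in both tables, 22 fell in T47D, 14 were not called and none rose (6.43% of all genes fell). In MDA-MB-231, 5 rose (3.60% of all genes) and 1 fell (4.63%). The difference was called as lower in T47D in 18 (background 5.37%) and higher in none, with a median of -0.18. The glutamate-cystine exchanger SLC7A11 had 35.7, 34.6 and 35.2 CPM in T47D at day 15, against 48.0, 45.8 and 44.1 CPM in T47D controls. It had 138, 132 and 126 CPM in MDA-MB-231 at day 15, against 113, 114 and 117 CPM in MDA-MB-231 controls. Groups did not overlap in either line, and the lines moved in opposite directions, with a difference of -0.58 (SE 0.0547, adjusted p = 1.98e-07). SLC7A5, a large neutral amino acid transporter, fell by 0.64 in T47D (difference -0.61 (SE 0.0851)), the serine synthesis enzyme PSAT1 by 0.53 (difference -0.63 (SE 0.108)) and the stress transcription factor DDIT3 by 0.47 (difference -0.57 (SE 0.0794)). Of the MDA-MB-231 rises, 2 were left without control replicate 2 or day 15 replicate 1 and 3 without any other single MDA-MB-231 library; the falls numbered 2 without day 15 replicate 1.

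Of 29 lysosome genes, 12 fell in T47D and none rose (6.43% of all genes fell). The difference was called in 9, all lower in T47D (5.37% of all genes). Their summed level was 6116, 6799 and 5864 CPM in T47D at day 15, against 6723, 6761 and 7006 CPM in T47D controls, so replicate 2 lay within the control range. Without T47D day 15 replicate 2, 22 fell, but in that setting T47D calls over all genes also went from 1395 to 3342. GPNMB, a transmembrane glycoprotein of lysosomes, had 29.2, 27.2 and 26.3 CPM in T47D at day 15, against 54.5, 54.7 and 52.1 CPM in T47D controls, and 2.97, 2.75 and 2.82 CPM in MDA-MB-231 at day 15, against 2.88, 2.46 and 2.82 CPM in MDA-MB-231 controls, a difference of -1.03 (SE 0.0969, adjusted p = 1.98e-07). Of 23 fatty acid oxidation and PPAR genes, 10 fell (6.43% of all genes) and 1 rose in T47D, none was called in MDA-MB-231, and 6 differences were lower (5.37% of all genes) and 1 higher in T47D. Leaving out T47D control replicate 1 or 3, or T47D day 15 replicate 1 or 3, removed the rise. The number that fell was 6 without T47D day 15 replicate 1, and 10 differences were lower with the GC and length trend removed. The coactivator PPARGC1A fell by 0.53 in T47D (difference -0.59 (SE 0.0794)) and PPARA by 0.41 (difference -0.44 (SE 0.0660)), whereas PPARG rose by 0.60 (difference 0.63 (SE 0.105)) from few T47D reads (30 to 47 reads in controls); as log2(CPM + 1) the PPARG difference was 0.34.

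**Figure D3:**
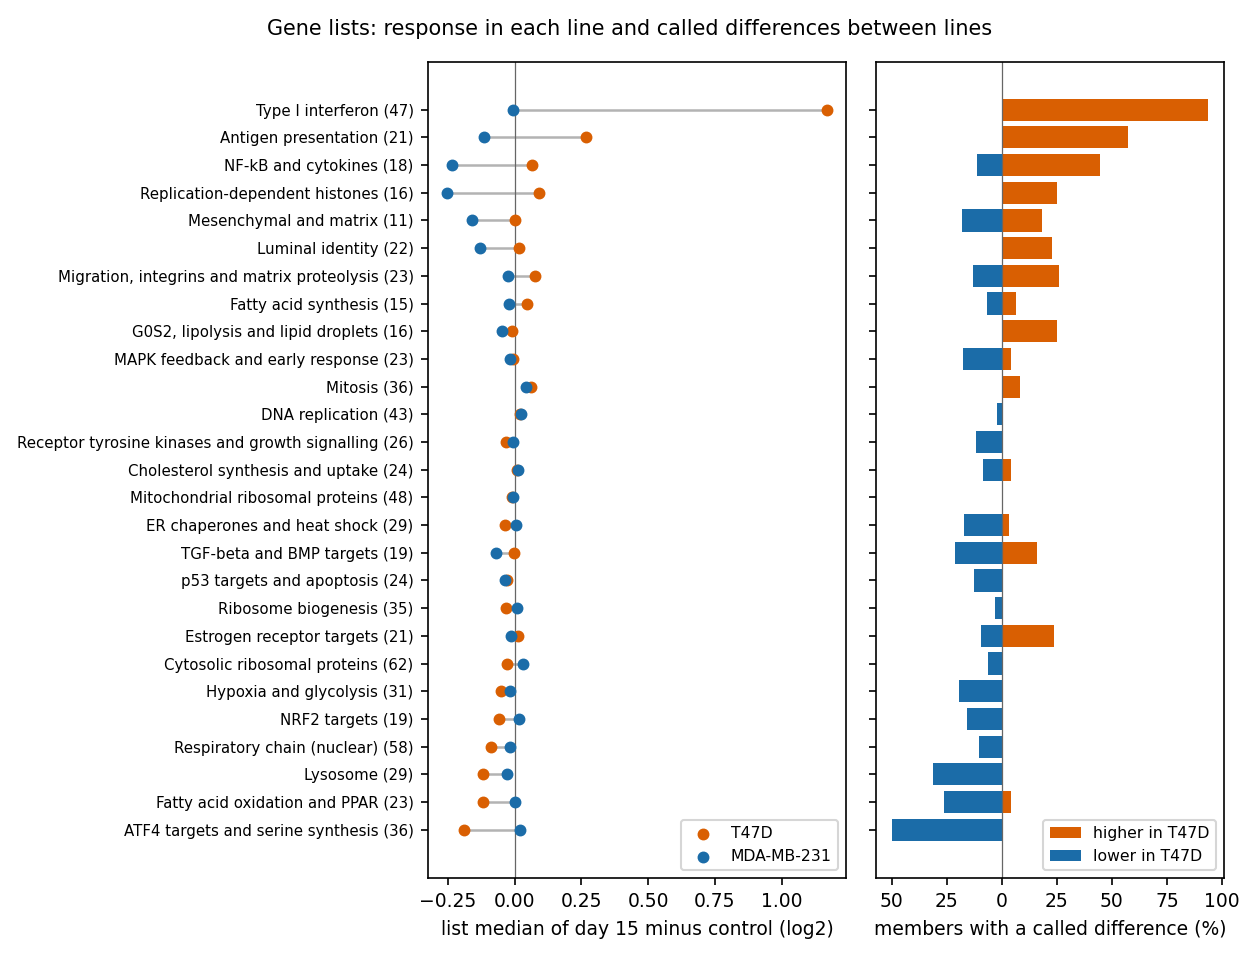
Each row is a gene list with its number of genes in both tables. The left panel plots the list median of the day 15 minus control difference in log2 CPM for T47D and MDA-MB-231, and the right panel the percent of members with a called difference, to the right where higher in T47D and to the left where lower. Interferon genes stand at 1.17 in T47D and -0.01 in MDA-MB-231; ATF4 targets lie at -0.19 and 0.02.

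Of 26 receptor tyrosine kinase and growth signalling genes in both tables, 3 differences were lower in T47D (5.37% of all genes) and none higher, with a list median of 0.0003; 4 were higher without T47D day 15 replicate 3. Among named genes with differences lower in T47D, KITLG, the ligand of the KIT receptor, had 32.4, 31.9 and 35.5 CPM in T47D at day 15, against 99.4, 91.4 and 88.1 CPM in T47D controls. It had 35.8, 34.5 and 35.0 CPM in MDA-MB-231 at day 15, against 36.5, 36.2 and 38.5 CPM in MDA-MB-231 controls. T47D controls were far above the other 3 groups, and the difference was -1.40 (SE 0.0678, limma with Benjamini-Hochberg adjusted p = 3.22e-12). INHBA, a subunit of activin, fell by 1.40 in T47D (difference -1.35 (SE 0.122)), and CALCR, the calcitonin receptor, by 1.40 (difference -1.11 (SE 0.0936)). ANXA3 fell by 1.13 and NTN4, a secreted netrin, by 0.95, with differences of -1.12 (SE 0.0727) and -1.07 (SE 0.0962). MET, the receptor of hepatocyte growth factor, fell by 1.40 in T47D but from 32 to 49 reads in controls, and its difference of -1.45 was -0.57 as log2(CPM + 1). IRS1, an adaptor of the insulin receptor, fell by 0.71 (difference -0.68 (SE 0.108)).

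**Figure D4:**
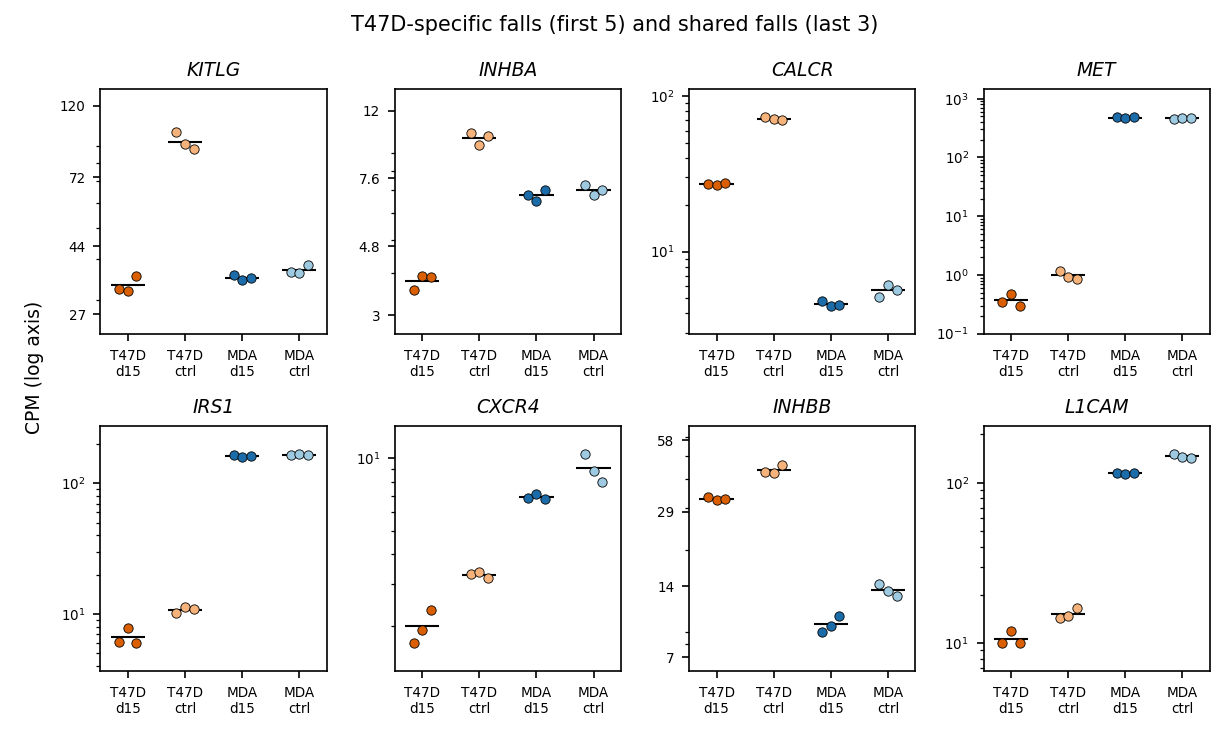
CPM on a log axis for the 3 libraries (points) and mean (line) of each group, for 5 T47D-specific falls and 3 falls called in both lines. In KITLG, INHBA, CALCR, MET and IRS1 the T47D day 15 points sit below the T47D control points. The MDA-MB-231 changes of these genes were smaller and not called, though its groups did not overlap in KITLG, CALCR and MET. CALCR fell by 0.29 in MDA-MB-231 (limma, adjusted p = 0.0635).

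The 69 shared falls included CXCR4, a chemokine receptor, with 1.70, 1.93 and 2.34 CPM in T47D at day 15, against 3.28, 3.35 and 3.17 CPM in T47D controls, and 6.86, 7.09 and 6.80 CPM in MDA-MB-231 at day 15, against 10.4, 8.86 and 7.97 CPM in MDA-MB-231 controls. The groups did not overlap in either line, and the difference between lines was not called (-0.34, 95% interval -0.70 to 0.01). INHBB fell by 0.40 in T47D and 0.48 in MDA-MB-231 (interval of the difference -0.11 to 0.26), and L1CAM, an adhesion molecule, by 0.51 and 0.35 (interval -0.33 to 0.00). THBS1, a matrix glycoprotein, fell in both lines but by more in T47D (-0.49 (SE 0.0286)) than in MDA-MB-231 (-0.21 (SE 0.0170)). Of the 25 shared genes with a called difference, 23 changed more in T47D.

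Among genes that moved in opposite directions, AREG, a ligand of EGFR and a known estrogen target, had 232, 216 and 243 CPM in T47D at day 15, against 174, 173 and 162 CPM in T47D controls, and 35.7, 36.1 and 39.0 CPM in MDA-MB-231 at day 15, against 41.6, 43.0 and 43.9 CPM in MDA-MB-231 controls. The groups did not overlap in either line, and the difference was 0.65 (SE 0.0579, limma with Benjamini-Hochberg adjusted p = 9.33e-08). SOX4 rose by 0.41 in T47D and fell by 0.24 in MDA-MB-231, S100A4 by 0.46 and 0.20, and PTPRU by 0.62 and 0.31. In the other direction, SHISA2 fell by 1.37 in T47D and rose by 0.19 in MDA-MB-231, EMP1 by 1.03 and 0.11, CLMP by 0.38 and 0.21, and EGFR by 0.19 and 0.10.

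**Figure D5:**
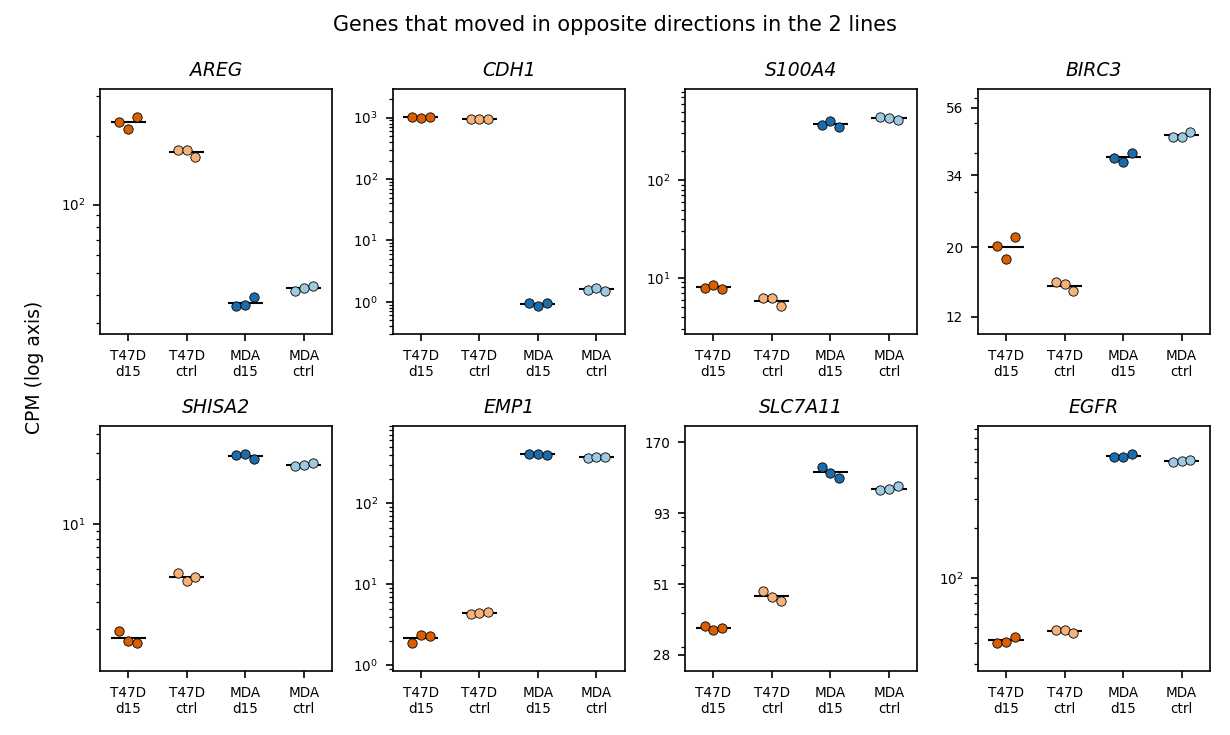
CPM on a log axis for the 3 libraries (points) and mean (line) of each group, for 4 genes higher in T47D and lower in MDA-MB-231 at day 15 (AREG, CDH1, S100A4, BIRC3) and 4 the other way round (SHISA2, EMP1, SLC7A11, EGFR). In each of the 8 panels the day 15 and control points do not overlap in either line; levels of the 2 lines come from tables normalized separately.

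Of 22 luminal identity genes in both tables, 9 fell in MDA-MB-231 and none rose there (4.63% of all genes fell). The falls in MDA-MB-231 numbered 4 without trend and robust moderation. In T47D, 4 rose (4.59% of all genes) and 3 fell (6.43%), and 2 members fell in both lines. Without T47D control replicate 1, 1 rose and 2 fell in T47D. The difference was called in 5, all higher in T47D (4.07% of all genes), but 1 was lower without MDA-MB-231 control replicate 3, and with the GC and length trend removed 4 were higher and 2 lower. CDH1, which encodes E-cadherin, rose by 0.10 in T47D and fell by 0.81 in MDA-MB-231, where it had 32 to 36 reads at day 15 and 65 to 76 reads in controls; its difference was 0.90, and 0.53 as log2(CPM + 1). GATA3 rose by 0.18 in T47D (difference 0.32 (SE 0.0584)). Of 21 estrogen receptor targets, 5 differences were higher (4.07% of all genes) and 2 lower (5.37%) in T47D. They included AREG and NRIP1, a receptor corepressor (0.32 (SE 0.0629)), and in the other direction STC2 (-0.49 (SE 0.142)), a call lost in 12 of 19 alternatives. Without T47D day 15 replicate 1 or MDA-MB-231 control replicate 1, 3 were higher. Without any 1 T47D library or MDA-MB-231 control replicates 1 or 3, 1 was lower, and with the GC and length trend removed 3 were higher and 5 lower.

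Among genes of G0S2's own pathway, PNPLA2 fell by 0.24 in MDA-MB-231 and was not called in T47D (0.08), with a difference of 0.32 (SE 0.0985, adjusted p = 0.0426) that was not called in 12 of 20 alternatives. The lipid droplet coat gene PLIN2 was not called in either line (difference 0.03, 95% interval -0.08 to 0.14). DGAT2, which makes triglyceride, rose by 0.72 (SE 0.123) in T47D (difference 0.66 (SE 0.138)), and MGLL, which cleaves monoglyceride, by 0.37 (SE 0.0882) (difference 0.48 (SE 0.0922)). DGAT2 was low in T47D (mean 1.69 log2 CPM). Of 16 genes on this list in both tables, G0S2 included, 4 differences were higher in T47D (4.07% of all genes) and 12 were not called. In T47D 3 rose (4.59% of all genes), with a list median change of -0.01. MYC was not called in either line (difference -0.01, interval -0.13 to 0.11), and CCND1 rose by 0.11 in T47D (difference 0.13 (SE 0.0307)).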

How the data were processed

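RNA of T47D and MDA-MB-231 cells was sequenced on a HiSeq instrument, per the labels' protocols. The submitters' processing notes name STAR, featureCounts, limma and the build GRCh38.p13, with no version of a tool and no order of steps. The authors deposited log2 CPM values per gene, 1 table per line, normalized separately; the unit was read from the values. After subtraction of a depth-scaled pseudocount of 3 reads, all values under 200 CPM were whole reads to within 0.1. Higher values were not checked, and the library size was fitted to these same values. CPM printed here keep that offset (0.0661 CPM in T47D, 0.0688 in MDA-MB-231), so folds of genes with few reads are understated. Every per-sample column was mapped to a sample (0 left over).

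The difference between lines was tested with limma 3.58.1 (R 4.3.3, statmod 1.5.0; trend and robust moderation) over all 18 libraries with 6 group means, and each line's day 15 response over its 9 libraries. P-values were adjusted by the Benjamini-Hochberg method over all genes tested and called under 0.05. The planned count test was not used because the tables hold log2 values. Lists are described by counts and medians with no set test, and the members, lists and named genes were chosen with earlier results of these data known. Genes were named by a rule: G0S2; in each direction, 8 genes with the largest called differences; 8 rises and 8 falls shared by the lines; up to 6 opposite genes each way (all with mean log2 CPM of 1 or more in both lines); up to 4 called members of each list with 3 or more; and a panel. Some genes of the rule are not reported here, and the 3 interferon genes without a called difference were named after their values were seen. Replicate pairs differed by more than sampling noise (chi-square per degree of freedom 1.736 to 23.59), so each library counts once. Genes were positioned with GENCODE release 29 and promoters taken from RefSeq. The test was checked on simulated data. Alternatives were the 12 day 15 and control libraries alone, a spread per line, no trend, recentring, a filter, another pseudocount, a replicate block, leaving out each library, a fold threshold and, chosen after seeing the data, removal of the GC and length trend (11947 of 12666 genes had a transcript, 94.3%).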

Additional observations from a re-analysis of the deposited data

Results flagged for a closer look

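For 73 named genes the day 15 response differed between the lines by the limma test of the difference itself, so each is given with its T47D minus MDA-MB-231 difference in log2 units. Higher in T47D by more than 2 log2 units were G0S2 (5.04), TES (4.72), IFI44 (4.61), IFI27 (4.31), OAS1 (3.77), OAS2 (2.75), OASL (2.68), IFIT1 (2.62), IFIT3 (2.47), MX1 (2.43), IFI6 (2.36), IFIT2 (2.31), ISG15 (2.28). Between 0.6 and 2 log2 units higher were SAMD9 (1.54), HLA-DRB1 (1.08), PLAAT4 (1.07), PTPRU (0.93), ADAM9 (0.92), PSMB9 (0.90), CDH1 (0.90), STON2 (0.87), NLRC5 (0.78), DGAT2 (0.66), BIRC3 (0.65), AREG (0.65), S100A4 (0.65), SOX4 (0.65), PPARG (0.63). Smaller differences higher in T47D were TNFAIP2 (0.57), ELF3 (0.55), ITGA1 (0.54), MGLL (0.48), CXCL16 (0.43), MUC1 (0.43), ICAM1 (0.40), PNPLA2 (0.32), NRIP1 (0.32), GATA3 (0.32), CCND1 (0.13).

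Lower in T47D by 1 log2 unit or more were SHISA2 (-1.56), MET (-1.45), KITLG (-1.40), INHBA (-1.35), EMP1 (-1.14), ANXA3 (-1.12), CALCR (-1.11), NTN4 (-1.07), GPNMB (-1.03). Between 0.4 and 1 log2 unit lower were IRS1 (-0.68), PSAT1 (-0.63), SLC7A5 (-0.61), CD44 (-0.60), TGFB2 (-0.60), CLMP (-0.60), PPARGC1A (-0.59), SLC7A11 (-0.58), DDIT3 (-0.57), SLFN5 (-0.55), STC2 (-0.49), GREB1 (-0.49), ADM (-0.46), PPARA (-0.44), NEDD9 (-0.41), TPP1 (-0.40). Smaller differences lower in T47D were NPC2 (-0.33), JUN (-0.31), NQO1 (-0.31), EGFR (-0.29), PHLDA1 (-0.29), THBS1 (-0.28), BNIP3 (-0.28), HMGCS1 (-0.26), IER3 (-0.16). Some of these differences rest on few reads, such as MET in T47D, OAS1 in both lines, and CDH1, STC2 and GREB1 in MDA-MB-231. No explanation of these differences was tested.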

How the results depend on the processing

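Of 73 called named differences, 59 stayed called in all 20 alternatives, and 8 with too low a level for the filter (CDH1, GREB1, IFI27, IFI44, ISG15, MET, OAS1 and PPARG) stayed called in the other 19. The call was lost in 12 alternatives each for PNPLA2 (of 20) and STC2 (of 19), in 5 for NEDD9, in 4 each for CXCL16 and IER3 and in 1 for MUC1. With log2(CPM + 1) the sizes of genes with few reads shrank by over 1.5 times, to 2.32 for IFI44, 2.40 for OAS1, 1.28 for ISG15, -0.57 for MET and 0.34 for PPARG, among others. Among named differences that were not called, leaving out 1 library gave -0.035 to 0.036 for MYC, -0.028 to 0.062 for MLLT3 and -0.027 to 0.060 for PTGFRN, so their sign is not settled, and with the GC and length trend removed CENPT was -0.015, INHBB -0.0017 and PTGFRN -0.012.

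With the 12 libraries alone, 769 differences (342 higher, 427 lower in T47D), 811 T47D and 669 MDA-MB-231 changes, 15 shared rises, 35 shared falls, 36 opposite, 441 T47D-specific and 100 MDA-MB-231-specific genes were called. Without trend and robust moderation there were 169 MDA-MB-231 changes, 4 shared rises, 16 shared falls, 16 opposite and 61 MDA-MB-231-specific genes. With a fold threshold of 0.3 there were 3 shared rises, 9 shared falls, 5 opposite, 330 T47D-specific and 42 MDA-MB-231-specific genes. With the GC and length trend removed there were 1048 lower differences, 2468 T47D changes, 105 shared falls and 1136 T47D-specific genes. Leaving out 1 library gave 860 to 1899 differences (377 to 885 higher in T47D), 767 to 3342 T47D and 380 to 1735 MDA-MB-231 changes, 10 to 118 shared rises, 40 to 201 shared falls, 38 to 99 opposite, 420 to 960 T47D-specific and 73 to 349 MDA-MB-231-specific genes. The causes of these shifts were not tested. All 1196 called differences kept their sign without T47D day 15 replicates 1, 2 or 3 and with the GC and length trend removed. These genes were selected as called on the same libraries, so this agreement is a description and adds no support.

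Whether the replicate numbers pair the samples is not settled. After group means were removed, same-numbered libraries correlated at -0.18 to 0.04 in T47D and -0.02 to 0.10 in MDA-MB-231. Differently numbered libraries correlated at -0.12 to 0.17 in T47D and -0.12 to 0.08 in MDA-MB-231. With the replicate block, 984 differences and 2081 MDA-MB-231 changes were called, against 1196 and 1042 in the main fit. Depth limits genes with few reads, and 3 libraries per group limit all tests.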

Other observations

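Genes listed in the table of only 1 line cannot enter the difference. Of 2102 listed only for T47D, 264 (12.6%) changed at day 15, near the 11.0% of genes in both tables, 158 higher and 106 lower. ESR1, the estrogen receptor, fell by 0.16 (SE 0.0293) and PGR, its target, by 0.18 (SE 0.0293), while FOXA1 was not called (-0.01). TFF1, another estrogen target, fell by 1.21 (SE 0.134) from a low level. Of 1642 listed only for MDA-MB-231, 131 (7.98%) changed, near the 8.23% of genes in both tables, 34 higher and 97 lower.

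Of 58 nuclear respiratory chain genes in both tables, 6 differences were called, all lower in T47D, against 5.37% of all genes lower and 9.44% in either direction. That count was 2 without T47D control replicates 1 or 2, 3 without T47D day 15 replicate 1 or any 1 MDA-MB-231 control, 1 without MDA-MB-231 day 15 replicate 2 and 10 without T47D day 15 replicate 3.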
